A study of Mus musculus with 1931 samples.

Results

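*Cdx2*, *Tfap2c*, *Eomes*, *Gata3* and *Ets2* are the 5 transcription factors that the 5-Factor mouse embryonic stem cell (ESC) line carries as doxycycline-inducible transgenes. Their rows were taken by gene name from a table of 20999 genes, and all 5 were present. They were read in the 1406 of 1931 sorted wells with at least 2500 genes above 0, and compared between 3 blocks of wells from 3D embryoids and 3 cultures grown in 2D. The table holds 1 value per gene and cell, so the transcript of a transgene and that of the endogenous gene cannot be told apart. Each block or culture was 1 sample, and its cells are not replicates, so the differences below are given by size and by their range over plates, without a test.

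The trophectoderm of the mouse blastocyst founds the placental lineage, and its polar part grows into the extraembryonic ectoderm (ExE), where trophoblast stem cells persist under FGF4. *Cdx2*, a caudal-type homeobox factor, and *Eomes*, a T-box factor, sustain these stem cells. *Tfap2c*, an AP-2 factor, and *Gata3*, a zinc-finger GATA factor, act from the earliest trophectoderm onwards, and *Ets2*, an ETS-domain factor, supports self-renewal of the stem cells. None of the genes is limited to trophoblast: *Tfap2c* is also used by primordial germ cells and naive pluripotent cells, and *Eomes* by the visceral endoderm (VE) and the primitive streak.

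The study built embryo-like structures (embryoids) from a mixture of ESC lines and sequenced single cells of them beside the corresponding 2D cultures. The Kermit line, an ESC line with an Oct3/4-GFP reporter and none of the 5 transgenes, was the source of the epiblast (Epi) compartment. The mCherry iGATA6 line, with a lentiviral doxycycline-inducible *Gata6*, is the proposed source of VE, and the 5-Factor line the likely source of ExE. Embryoids aggregated for a day without doxycycline, received it at 2 µg/ml on the next days, spent a final day without it, were picked by hand and were pooled before sorting by GFP, mCherry or an antibody to CD40. Wells in plate columns 1 to 8, 9 to 16 and 17 to 24 of plates 3, 4 and 5 are called Epi, VE and ExE columns. The labels do not tie a block of columns to a sort gate, so these names rest on marker genes. In 2D, Kermit ESCs were kept in 2i/LIF without doxycycline and sorted for GFP, the 5-Factor line gave induced trophoblast stem cells (iTSC) in medium with FGF4, heparin and fibroblast-conditioned medium, and the iGATA6 line gave induced extraembryonic endoderm cells (iXEN), both with doxycycline followed by a final day without it. The plates split 1 pool of embryoids and are technical, and each 2D condition is treated as 1 culture, since no source used here describes more.

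After the minimum of genes 982 of 1149 3D wells and 424 of 782 2D wells were kept. The Epi, VE and ExE columns held 32%, 32.1% and 35.9% of the 3D cells, and ESCs, iXEN and iTSC 33.5%, 33.3% and 33.3% of the 2D cells. The values are TPM, transcript abundances scaled by length and library, without read counts, so the number of genes above 0 stands in for depth. Its median ranged from 4823 to 5396 in the 3D blocks and from 8537 to 9093.5 in the 2D cultures, so shares of cells with a factor are not compared between 3D and 2D, and mean levels are. Levels are given as TP10k, each cell's values rescaled to a sum of 10000. TPM are divided by transcript length, so levels may be set side by side between factors. A gene at exactly 0 may be below detection in that cell. Intervals are exact 95% binomial intervals and cover counting error only, and reads carried no molecular identifiers.

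The labelled compartments were checked with 7 marker genes each for Epi, VE and ExE. Each of the 7 markers of a list had its highest 3D mean in the block of that name. By the list with the highest mean ln(TP10k + 1) per cell, 99.4% of cells of the Epi columns and 98.7% of the VE columns were led by their own list, and so were all ESCs and all iXEN. In the ExE columns 27.8% of cells (98 cells) were led by the ExE list, 49% by the VE list and 23.2% by the Epi list, often by a lead of under 0.1. The VE lead there came with *Apoe*, found in 81.3% of cells of the ExE columns but also in 99.7% of the Epi columns. In the cells led by the VE list *Apoe* was found in 93.6%, *Gata4* in 54.9%, *Dab2* in 23.7%, *Amn* in 13.9%, *Cubn* in 11.6% and *Sox17* in 8.09%. Over all cells of the ExE columns *Amn* was found in 12.5%, *Cubn* in 7.65%, *Sox17* in 3.97%, *Dab2* in 15.9% and *Gata4* in 38.2%, against 86.7% to 98.1% for these 5 genes in the VE columns. *Elf5*, an ETS factor of trophoblast stem cells, was found in 33.7% of the ExE columns. The summed level of the 7 ExE markers had a median of 0.417 TP10k in the ExE columns and 7.68 in iTSC. It was 0 in the Epi columns and 0.0904 in the VE columns, but 0.461 in iXEN, so the median cell of the ExE columns did not exceed that of iXEN. In iTSC 80 cells were led by the ExE list, 50 by the Epi list and 11 by the VE list. Transcripts of *Cd40*, whose protein was used for sorting, were found in 42.5% of the ExE columns and 61% of iTSC, and in 6.05% and 12.1% of the Epi and VE columns. The ratios and shares of the factors in the ExE columns are therefore also given for the 98 cells led by the ExE list. Pairs, combinations, genes read by number of factors and nearest genes are given over all cells of the block only. Fibroblast markers, 6 genes, were read because iTSC medium was conditioned on fibroblasts. They were found in a median of 7.45% of iTSC, 7.39% of ESCs and 6.74% of iXEN, and in 1.84% of cells in the ExE columns.

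On GRCm38 with the Gencode annotation, *Cdx2* (ENSMUSG00000029646.3) lies at chr5:147300805-147307270 on the minus strand and *Tfap2c* (ENSMUSG00000028640.11) at chr2:172549593-172558622 on the plus strand. *Eomes* (ENSMUSG00000032446.14) lies at chr9:118478212-118486132 on the plus strand, *Gata3* (ENSMUSG00000015619.10) at chr2:9857078-9890034 on the minus strand and *Ets2* (ENSMUSG00000022895.16) at chr16:95702075-95721051 on the plus strand. The library kit does not mark strand, so reads of the antisense genes *Gm33460*, which overlaps the 3′ end of *Eomes*, and *Gm13256*, within *Gata3*, cannot be told apart from those of the factors. Neither antisense gene is in the table.

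The upstream sequences of *Cdx2*, *Eomes* and *Gata3* are shown because these factors had the largest ratios of the ExE to the Epi columns. They are the 250 bases before the RefSeq start (GRCm38.p6), 5′ to 3′ on the strand of the gene. For *Cdx2*, at chr5:147307271-147307499, the 21 bases next to the start lie in an annotated exon and were left out. The *Eomes* window is chr9:118477939-118478188 and the *Gata3* window chr2:9878601-9878850, inside the Gencode gene and over an exon of *Gm13256*. Capitals mark matches, on either strand, to GCCNNNGGC (AP-2) or CCGGAA (ETS).
Cdx2: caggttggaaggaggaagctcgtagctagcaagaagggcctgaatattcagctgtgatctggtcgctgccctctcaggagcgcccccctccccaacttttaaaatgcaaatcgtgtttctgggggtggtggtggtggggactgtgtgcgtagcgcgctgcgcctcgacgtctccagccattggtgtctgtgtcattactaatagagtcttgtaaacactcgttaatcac
Eomes: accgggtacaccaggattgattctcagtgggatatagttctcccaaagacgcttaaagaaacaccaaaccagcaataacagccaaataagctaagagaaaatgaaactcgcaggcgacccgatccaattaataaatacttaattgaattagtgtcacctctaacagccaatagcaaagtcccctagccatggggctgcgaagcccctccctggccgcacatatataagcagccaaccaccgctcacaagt
Gata3: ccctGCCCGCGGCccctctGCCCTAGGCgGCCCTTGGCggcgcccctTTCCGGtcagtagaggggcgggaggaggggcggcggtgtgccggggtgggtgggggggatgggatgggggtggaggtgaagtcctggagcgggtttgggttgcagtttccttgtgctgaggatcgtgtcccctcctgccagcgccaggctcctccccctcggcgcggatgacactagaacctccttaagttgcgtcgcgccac

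The *Gata3* window held 3 matches to GCCNNNGGC and 1 to CCGGAA, with none overlapping, and the printed *Cdx2* and *Eomes* windows held none. The full *Cdx2* window had 1 match to GCCNNNGGC, within the bases left out. Among 32851 RefSeq windows of the same 250 bases before a start, 13.7% held GCCNNNGGC and 12% held CCGGAA on either strand. The motif AGATAA of GATA factors (in 9.99% of windows), AGGTGT of T-box factors (11.8%), TTTATG of CDX factors (10.8%) and GGAATG of TEAD factors (12.6%) had no match in the windows of these 3 genes. The *Ets2* window, which lies within an annotated exon, matched none of the 6 motifs and is not printed. For *Tfap2c* no window was used here. A match describes these letters only, and the transgenes carry promoters of their own.

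Over all cells, *Cdx2* had the largest ratio of the 5 factors in the ExE columns over both other blocks. Its ratio was also the largest in iTSC over ESCs, but not in iTSC over iXEN. In the ExE columns the lowest cell was at 0, the median at 0.191 and the highest at 8.11 TP10k, with *Cdx2* in 61.5% of cells (56.2 to 66.6). In iTSC the median was 0.144 and the highest cell 2.18, with *Cdx2* in 63.1% of cells (54.6 to 71.1). *Cdx2* was found in 1 cell of the Epi columns (0.318%), at 0.386, and in 1 ESC (0.704%), at 0.102. It was found in 9 cells of the VE columns (2.86%), the highest at 0.938. In iXEN it was found in 19.1% of cells (13 to 26.6), but no iXEN cell passed 0.294. The group means, from highest to lowest, were 0.625 in the ExE columns, 0.313 in iTSC, 0.0195 in iXEN, 0.00785 in the VE columns, 0.00123 in the Epi columns and 0.000721 in ESCs. Over plates the ExE columns ranged from 0.478 to 0.806 and the VE columns from 0.00627 to 0.00876, and in the Epi columns plates 4 and 5 had no cell with *Cdx2*.

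*Tfap2c* was shared by the ExE columns, iTSC and the pluripotent groups and was scarce in the VE columns and iXEN. Its mean was 0.986 in the ExE columns (plates 0.791 to 1.29), 0.678 in iTSC, 0.446 in the Epi columns (0.388 to 0.483), 0.355 in ESCs, 0.0141 in the VE columns (0.00527 to 0.0181) and 0.00901 in iXEN. The cells spread widely, from 0 to 24.4 with a median of 0.306 in the ExE columns and from 0 to 4.96 with a median of 0 in the Epi columns. In iTSC the median cell was at 0.537 and the highest at 3.62, and in ESCs at 0.271 and 2.71. *Tfap2c* was found in 58.1% of cells of the ExE columns, 39.5% of the Epi columns and 3.49% of the VE columns, and in 92.9% of iTSC, 87.3% of ESCs and 7.80% of iXEN. The plate ranges of the ExE and the Epi columns did not overlap, nor did those of the Epi and the VE columns.

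*Eomes* was highest in iTSC and the ExE columns, with a lower level in iXEN and the VE columns. Its mean was 0.593 in iTSC, 0.466 in the ExE columns (plates 0.407 to 0.532), 0.112 in iXEN, 0.0834 in the VE columns (0.0569 to 0.134), 0.0333 in the Epi columns (0.0204 to 0.0453) and 0.0122 in ESCs. It was the only factor whose mean was higher in iTSC than in the ExE columns, and the iTSC value lay above all 3 plates of the ExE columns. The iXEN value lay within the plate range of the VE columns, so these neighbours did not differ beyond that spread. The median cell was at 0.124 in the ExE columns, where the highest reached 5.00, and at 0.474 in iTSC, where the highest reached 4.23. *Eomes* was found in 55.2% of cells of the ExE columns, 23.8% of the VE columns and 7.96% of the Epi columns, and in 89.4% of iTSC, 64.5% of iXEN and 15.5% of ESCs.

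*Gata3* was highest in the ExE columns and iTSC, and was found in many ESCs at a lower level. Its mean was 0.819 in the ExE columns (plates 0.613 to 1.02), 0.519 in iTSC, 0.112 in ESCs, 0.0307 in the VE columns (0.000541 to 0.0598), 0.0262 in iXEN and 0.00557 in the Epi columns (0.00168 to 0.0123). The iXEN and the Epi values lay within the plate range of the VE columns, and the ESC value lay above it. The median cell was at 0.0401 in the ExE columns and at 0.301 in iTSC, and the highest at 10.2 and 8.37. Cells with *Gata3* made up 53.5% of the ExE columns, 77.3% of iTSC, 44.4% of ESCs (36 to 52.9) and 2.23% of the Epi columns. The 2 pluripotent groups thus stood apart in this gene, at 0.112 against 0.00557, and ESCs also had the highest median number of genes per cell.

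*Ets2* differed least between the groups. Its mean was 0.402 in the ExE columns (plates 0.315 to 0.534), 0.293 in ESCs, 0.264 in iTSC, 0.167 in iXEN, 0.138 in the Epi columns (0.116 to 0.170) and 0.0989 in the VE columns (0.0297 to 0.136). The plate ranges of the Epi and VE columns overlapped, and iXEN lay within that of the Epi columns. ESCs and iTSC, neighbours in this order at 0.293 and 0.264, have no plates to give a spread. The median cell was at 0.0759 in the ExE columns, 0.235 in ESCs, 0.197 in iTSC and 0.122 in iXEN. A single cell of the ExE columns reached 16.7, whereas the highest iTSC was at 1.198. *Ets2* was found in 82.3% to 90.1% of cells in each 2D culture, in 54.1% of the ExE columns, 27.3% of the VE columns and 24.2% of the Epi columns.

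**Figure D1:**
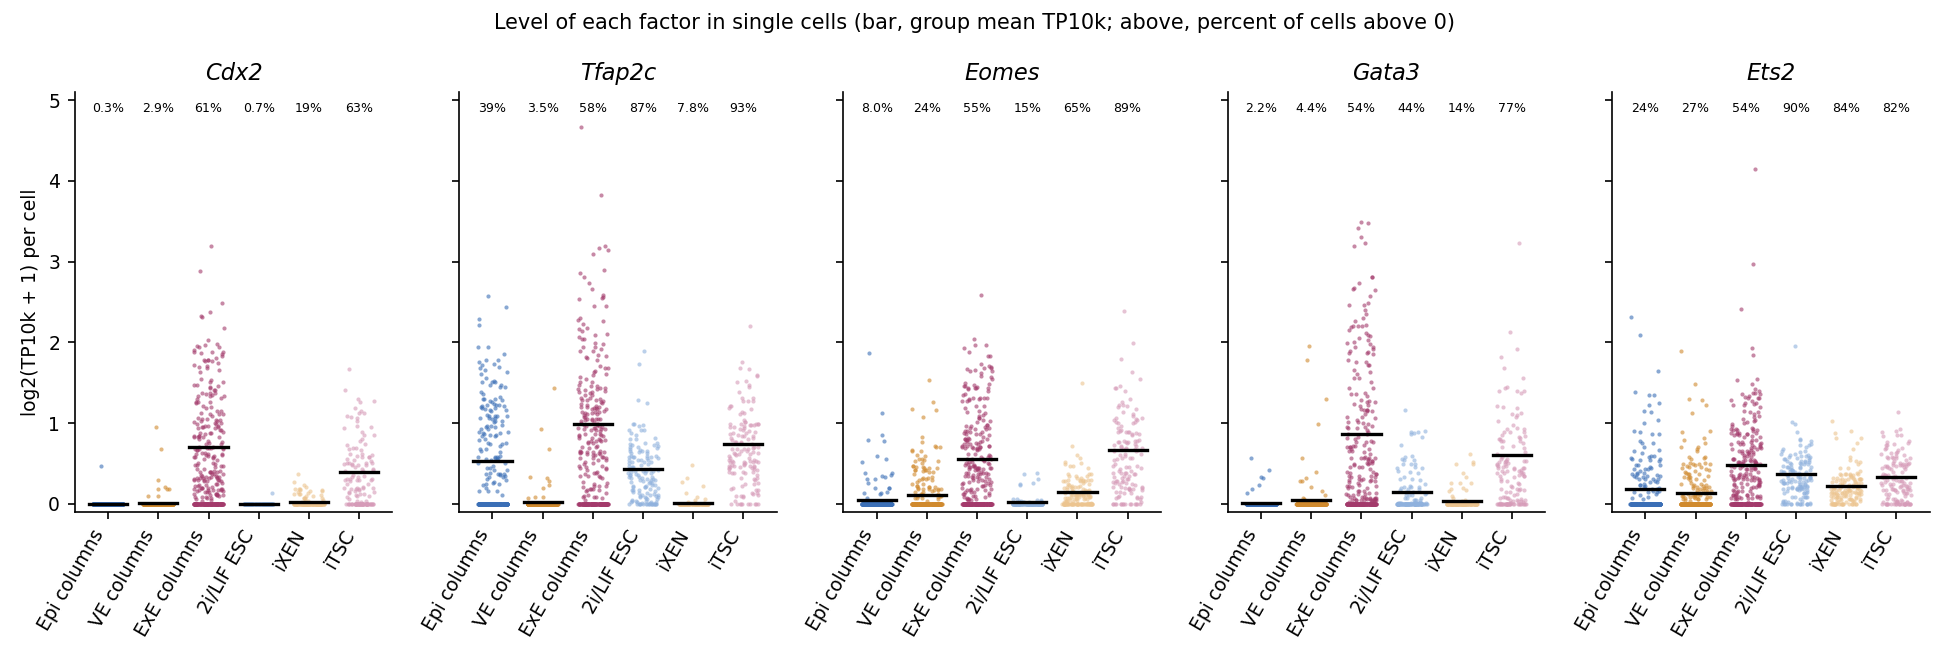
Level of each factor per cell, as log2(TP10k + 1), in the 3D blocks (Epi, VE and ExE columns) and the 2D cultures (2i/LIF ESC, iXEN, iTSC). Points are cells, the black bar is the group mean TP10k on the same scale, and the figures at the top are the percent of cells above 0. *Cdx2* is near 0 outside the ExE columns and iTSC, whereas *Ets2* is spread over all 6 groups.

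The 5 means together summed to 3.30 TP10k in the ExE columns and 2.37 in iTSC, against 0.773 in ESCs, 0.624 in the Epi columns, 0.334 in iXEN and 0.235 in the VE columns. In the ExE columns no factor dominated the sum, with *Tfap2c* at 29.9%, *Gata3* at 24.8%, *Cdx2* at 19%, *Eomes* at 14.1% and *Ets2* at 12.2%. In the Epi columns *Tfap2c* alone made 71.5% of a smaller sum, in ESCs *Tfap2c* and *Ets2* made 45.9% and 37.9%, and in the VE columns and iXEN *Ets2* came first and *Eomes* second. Within cells of the ExE columns that had any factor, each of the 5 was the highest in a share of them: *Tfap2c* in 27.6%, *Gata3* in 23.3%, *Cdx2* in 20.2%, *Eomes* in 15.5% and *Ets2* in 13.4%.

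A ratio of means of at least 2-fold, in the same direction on plates 3, 4 and 5 where the groups had plates, was used as the rule for a gene that was higher or lower. Over the Epi columns all 5 factors met it in the ExE columns. *Cdx2* was 509-fold higher, a ratio that rests on 1 cell of the Epi columns, *Gata3* 147.1-fold, *Eomes* 14-fold, *Ets2* 2.92-fold and *Tfap2c* 2.21-fold. For *Tfap2c* the log2 ratio ranged from 0.71 to 1.45 over plates and was 0.93 without plate 3. Of 10886 genes found in at least 10% of cells of either block, 15.5% met the rule as higher and 8.98% as lower. The median log2 ratio over all genes tested was 0.10. *Cdx2*, *Eomes* and *Gata3* passed the 10% filter only through the ExE columns, so large ratios are in part built in for them.

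Over the VE columns, in a comparison that shares the ExE columns with the first, all 5 factors again met the rule. *Cdx2* was 79.7-fold, *Tfap2c* 69.8-fold, *Gata3* 26.7-fold, *Eomes* 5.59-fold and *Ets2* 4.06-fold higher. *Tfap2c*, the factor with the smallest ratio over the Epi columns, was thus next to *Cdx2* over the VE columns. *Gata3* varied most over plates, with log2 ratios from 3.36 to 10.6. The background was 15.5% of 10836 genes higher and 8.86% lower, with a median log2 ratio of 0.15 for all genes. *Cdx2*, *Tfap2c* and *Gata3* passed the same filter only through the ExE columns. For the 98 cells led by the ExE list the log2 ratios over all cells of the VE columns ranged from 2.46 for *Ets2* to 6.58 for *Tfap2c*, and those over all cells of the Epi columns from 1.595 for *Tfap2c* to 8.57 for *Cdx2*. With the VE columns also limited to cells led by their own list, the log2 ratio was 8.02 for *Tfap2c* and 6.79 for *Cdx2* (5.89 over all), so the other 4 cells carried most of the *Tfap2c* of that block.

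In 2D fewer factors met the rule. In iTSC over ESCs *Cdx2* was 434-fold higher, resting on 1 ESC, *Eomes* 48.6-fold and *Gata3* 4.62-fold, whereas the *Tfap2c* ratio was 1.91 and the *Ets2* ratio 0.901. That is 3 of 5 factors, against a background of 22.3% of 13788 genes higher and 11.1% lower. *Cdx2* passed the same filter only through iTSC. In iTSC over iXEN *Tfap2c* was 75.2-fold, *Gata3* 19.8-fold, *Cdx2* 16.1-fold and *Eomes* 5.29-fold higher, and the *Ets2* ratio was 1.58. Thus 4 of 5 met the rule, against 21.1% of 13450 genes higher and 12.2% lower. Here *Tfap2c* passed the filter only through iTSC. In cells with 5000 to 8000 genes, a window that holds only 6 ESCs, the log2 ratio of *Gata3* between iTSC and ESCs was 0.78 and no longer met the rule.

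Between the ExE columns and iTSC none of the 5 factors met the rule. The ratio of the ExE columns to iTSC was 2.00 for *Cdx2*, just short of 2-fold, 1.58 for *Gata3*, 1.52 for *Ets2*, 1.45 for *Tfap2c* and 0.786 for *Eomes*. The background here was 10.2% of 13012 genes higher and 14.5% lower. *Cdx2* passed 2-fold without plate 4 (log2 ratio 1.158) and without plate 5 (1.05). In cells with 5000 to 8000 genes *Cdx2* (1.39) and *Gata3* (1.31) met the rule, and in the 98 cells led by the ExE list *Ets2* did (1.05). In these 98 cells the *Eomes* mean was 1.01, above that of iTSC, and the log2 ratio turned from -0.35 to 0.77. Both ratios of the 98 cells were taken over all iTSC, which were not selected by list. In the 80 iTSC led by the ExE list the means were 0.753 for *Eomes* and 0.313 for *Ets2*, against 1.01 and 0.546 in the 98 cells. The sort by an antibody to CD40 went with like levels of *Cd40* transcript, 0.701 in the ExE columns and 0.704 in iTSC.

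**Figure D2:**
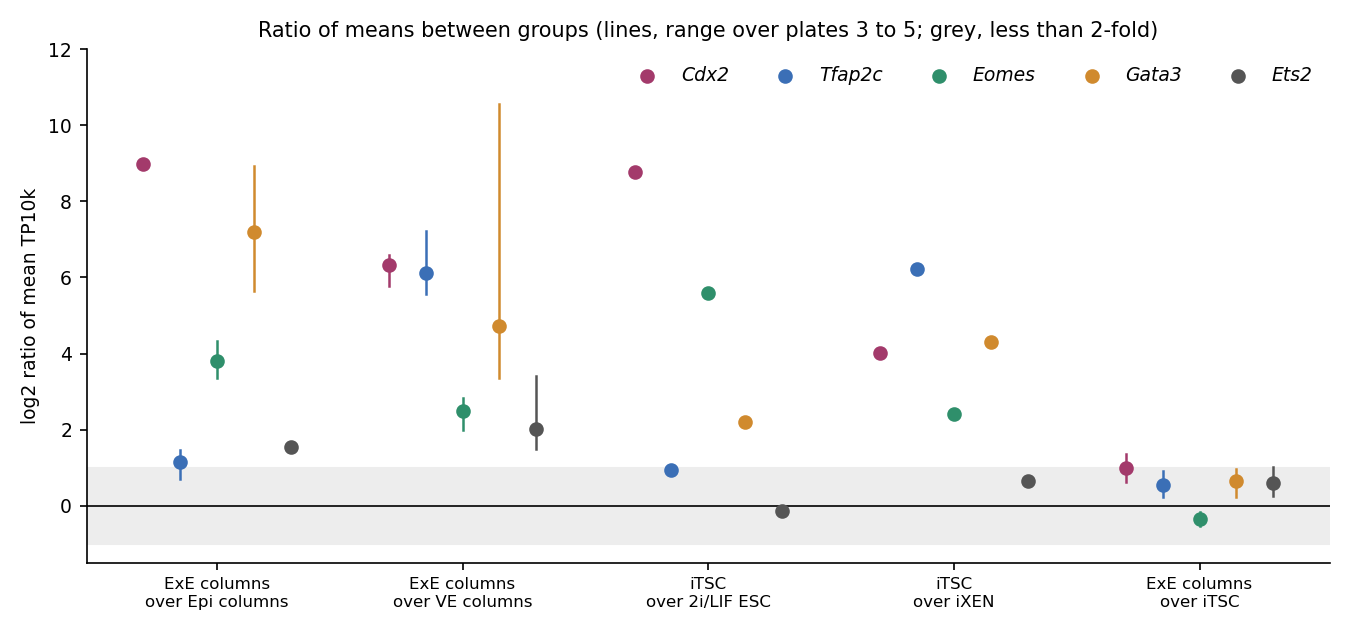
log2 ratio of mean TP10k of each factor in 5 comparisons between groups. Points are ratios over all cells, lines span plates 3 to 5 and the grey band marks less than 2-fold. *Cdx2* in the ExE over the Epi columns has no line because 2 plates of the Epi columns had no cell with it, and the 2D comparisons have no plates. All points of the first 2 comparisons lie above the band, and those of the ExE columns over iTSC lie within it.

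Most cells of the ExE columns and of iTSC held several factors. At least 3 of the 5 were found in 58.4% of cells of the ExE columns (53 to 63.6) and in 88.7% of iTSC (82.2 to 93.4). In the Epi and VE columns this held for 3 and 4 cells, or 0.955% and 1.27%. In ESCs 45.1% and in iXEN 27.7% of cells had at least 3, at a greater number of genes per cell. All 5 factors were found in 57 cells of the ExE columns (16.1%), 61 iTSC (43.3%), 1 cell of the VE columns and no cell of the Epi columns, ESCs or iXEN, where counts of 0, taken as up to 3 cells of the total, allow shares of up to 0.955%, 2.11% and 2.13%. The share with at least 3 factors in the ExE columns ranged from 49.6% to 73.8% over plates, plate 3 having both the highest share and the most genes per cell, and was 50.2% without plate 3. Split at the median number of genes, it was 39.5% in cells below and 77.3% in cells above it. In cells with 5000 to 8000 genes it was 71.6% in the ExE columns, 88.9% of 45 iTSC, 11.4% of 35 iXEN, 1.98% in the VE columns and 0.725% in the Epi columns.

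**Figure D3:**
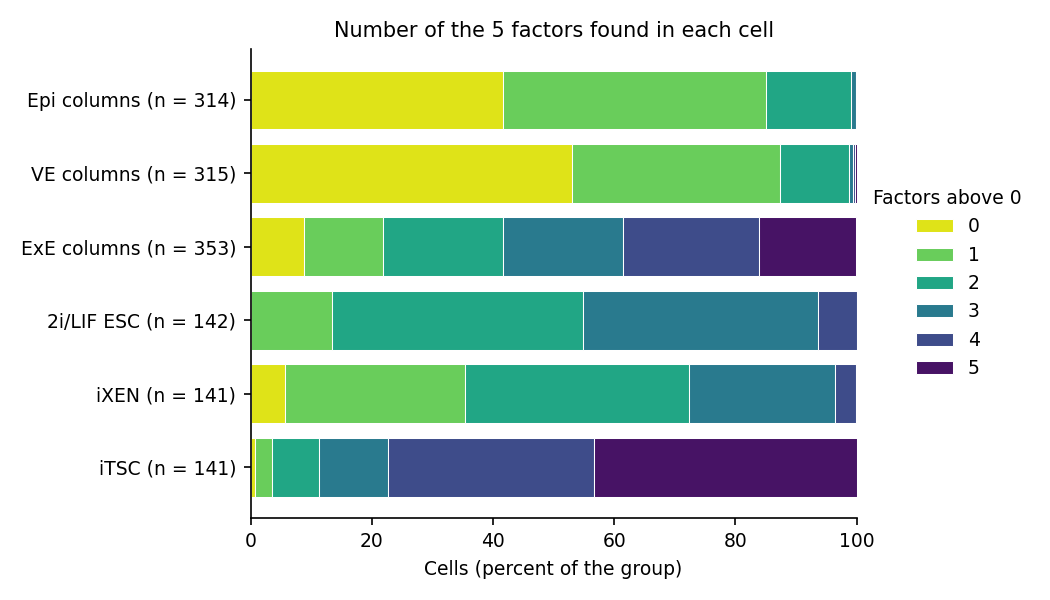
Percent of cells of each group by the number of the 5 factors found, from 0 to 5. The Epi and VE columns hold mostly cells with 0 or 1 factor, iTSC mostly cells with 4 or 5, and the ExE columns are spread over all classes with 8.78% of cells at 0 and 16.1% at 5.

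The combinations differed as well as the numbers. How many occur depends on the number of cells and on depth, which differed between the groups. All 32 possible combinations occurred in the ExE columns, led by all 5 factors (16.1%), none (8.78%) and all but *Gata3* (8.50%). In iTSC 22 occurred, led by all 5 (43.3%) and all but *Cdx2* (17.7%). In ESCs the leading combinations were *Tfap2c* with *Ets2* (34.5%) and *Tfap2c* with *Gata3* and *Ets2* (33.1%), and in iXEN *Eomes* with *Ets2* (29.1%). In the Epi columns 41.7% of cells had none and 26.4% *Tfap2c* alone, and in the VE columns 53% had none and 16.8% *Ets2* alone. Of the 55 ESCs with exactly 3 factors, 47 had *Tfap2c*, *Gata3* and *Ets2*.

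The pairs of factors were read over all cells of the ExE columns and not within the 98 cells led by the ExE list. For each of the 10 pairs the second factor was found more often in cells with the first than in cells without it. How often other genes show this direction was not computed. The VE marker *Gata4* was found in 43.3% of cells with and 30.1% without *Cdx2*, and in 42.9% and 32.9% for *Gata3*. For *Tfap2c* (36.6% and 40.5%), *Eomes* (37.9% and 38.6%) and *Ets2* (37.2% and 39.5%) it went the other way. Among the 10 pairs the gap was widest for *Tfap2c* and *Eomes*, with *Eomes* in 69.8% of cells with *Tfap2c* and 35.1% of cells without. It was narrowest for *Eomes* and *Gata3*, with *Gata3* in 59.5% of cells with *Eomes* and 46.2% of those without. Because cells with more factors also had more genes, the pairs were read separately below and above the median number of genes, and all 10 kept their direction on both sides. *Eomes* was found in 54.5% against 33% of cells with and without *Tfap2c* below the median and in 78.9% against 39.6% above it. *Gata3* was found in 65% against 58.9% of cells with and without *Eomes* above the median. The Pearson correlation of ln(TP10k + 1) was 0.33 for *Tfap2c* and *Eomes* and 0.11 for *Eomes* and *Gata3* over the cells of the ExE columns. On single plates it fell as low as 0.00777 for *Cdx2* and *Tfap2c* and -0.00338 for *Cdx2* and *Ets2*. Ranked by the mean over plates among 10412 genes, *Eomes* came at rank 1 for *Tfap2c*. *Gata3* came at rank 1810 for *Eomes* and *Ets2* at rank 420 for *Cdx2*. The depth that factors of a cell share was not removed from these values, nor was the mix of marker lists in the block. In iTSC the same direction was found for 9 of 10 pairs, with *Eomes* in 89.3% of cells with and 90% of the 10 cells without *Tfap2c* as the exception.

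**Figure D4:**
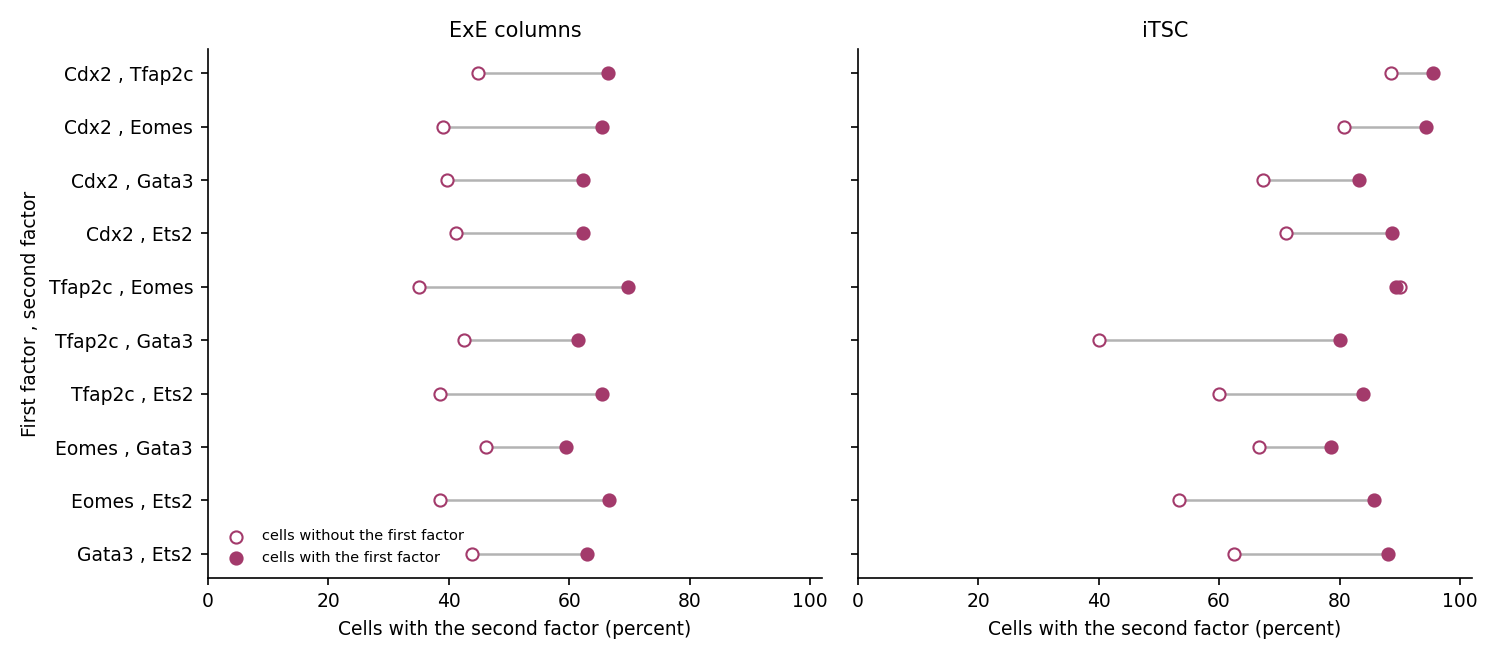
Percent of cells with the second factor of each pair among cells with (filled) and without (open) the first, in the ExE columns and iTSC. In the ExE columns every filled point lies to the right of its open point, with the widest gap for *Tfap2c* and *Eomes*. In iTSC the points of *Tfap2c* and *Eomes* nearly coincide.

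The marker list that led a cell went with some factors more than with others. In the ExE columns, cells led by the ExE list had *Tfap2c* in 88.8%, *Eomes* in 88.8% and *Ets2* in 79.6%, against 41%, 40.5% and 42.2% of cells led by the VE list. For *Cdx2* the shares were 65.3% and 56.1% and for *Gata3* 59.2% and 48.6%. The *Cdx2* mean was higher in the cells led by the VE list, 0.685 against 0.465, whereas that of *Eomes* was 0.225 against 1.01. At least 3 factors were found in 86.7% of cells led by the ExE list, 59.8% led by the Epi list and 41.6% led by the VE list, whose median numbers of genes were 5809, 5168.5 and 5275. None of the 5 factors is in the marker lists. Whether cells led by the VE list are trophoblast with few marker transcripts or another cell type was not tested.

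Genes of the trophoblast network and of pluripotency were then read by the number of factors in cells of the ExE columns, with 21.8% of cells at 0 to 1, 39.7% at 2 to 3 and 38.5% at 4 to 5 factors. Of 10408 genes found in at least 10% of these cells, 32.5% had their highest mean at 4 to 5 factors and 37.7% at 0 to 1. Of 16 network genes 12 had their highest mean at 4 to 5 factors, and so did 11 of the 15 found in at least 10% of cells. *Elf5* had means of 0.130, 0.214 and 1.34 TP10k over the 3 classes. *Bmp4*, a ligand that the ExE sends to the epiblast, had 0.169, 0.406 and 1.93, and *Hand1*, a factor of differentiating trophoblast, had 0.0750, 0.535 and 1.58. The median number of genes also differed, at 4558, 5140.5 and 5971.5. Opposite to this order, all 7 VE markers and 7 of 8 genes of parietal endoderm had their highest mean at 0 to 1 factor, with *Apoe* at 26.9, 9.21 and 4.23. Among genes found in at least 10% of cells, all 4 VE markers and all 6 genes of parietal endoderm did. The highest mean was also at 0 to 1 factor for 4 of 5 pluripotency genes, and for 2 of the 3 found in at least 10% of cells. *Pou5f1* was at 0.693, 0.224 and 0.235. *Nanog* was at 0.141, 0.138 and 0.0658, although found in 28.6%, 25.7% and 39% of cells. On plate 4 neither was highest at 0 to 1 factor, with *Pou5f1* at 0.208, 0.254 and 0.0849 and *Nanog* at 0.0367, 0.0956 and 0.0550. The 7 genes of giant cells and placenta were found in a median of 1.30% to 3.57% of cells over the classes. Of these, *Hand1* was found in 7.79%, 18.6% and 47.1% and *Ascl2* in 2.60%, 5% and 12.5%, whereas the others reached at most 7.86%.

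In iTSC the means of *Pou5f1* and *Nanog* were lower in cells with more factors. No share over all genes was computed for this split. *Pou5f1*, which encodes Oct3/4, had a mean of 4.22 in the 27 cells with 2 to 3 factors and 1.13 in the 77.3% of cells with 4 to 5, and 6.95 in the 5 cells below that. *Pou5f1* was found in 60%, 70.4% and 62.4% of cells at 0 to 1, 2 to 3 and 4 to 5 factors. *Nanog* had 0.617 and 0.0918 in the 2 larger classes, although it was found in 63% and 75.2% of their cells. By single factors, the mean of *Pou5f1* was 1.19 in cells with and 4.44 in cells without *Gata3*, 1.35 and 4.61 for *Ets2*, and 1.57 and 2.54 for *Cdx2*. *Sox2*, which trophoblast stem cells share with pluripotent cells, was found in 97.2% of iTSC with and 96.9% without *Gata3*. Its mean was lower in cells with *Gata3*, 0.735 against 1.07, but higher in cells with *Eomes*, 0.827 against 0.690. The part of depth in these values was not tested.

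Relatives of the factors in their gene families were not uniform. The CDX and AP-2 relatives (*Cdx1* and *Cdx4*, and *Tfap2a*, *Tfap2b*, *Tfap2d* and *Tfap2e*) were found in too few 3D cells for a ratio. In iTSC *Cdx1* was found in 21.3% of cells with a mean of 0.0527, and *Tfap2a* in 27% with a mean of 0.0181. Of the T-box relatives, *Tbx3* was lower in the ExE than in the VE columns, at 0.207 against 0.544, and Brachyury (T) was higher in iTSC than in ESCs, at 0.0572 against 0.00289. *Gata1* and *Gata2* were higher in the ExE columns than in both other blocks, with *Gata2*, a regulator of trophoblast genes, at 0.188 against 0.00645 and 0.00573. *Gata4* and *Gata6*, which specify endoderm, lay between the blocks, with *Gata4* at 0.0246, 0.412 and 2.90 in the Epi, ExE and VE columns. *Gata6*, the transgene of the iGATA6 line, was found in 0.637%, 15.3% and 89.8% of them. Of the 8 ETS relatives, *Elf5* was 47.2-fold higher in the ExE than in the Epi columns, *Erf* also met the rule, and *Etv5* was lower, at 0.393 against 1.163.

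Of the trophoblast network, 12 of 15 genes tested were higher in the ExE than in the Epi columns and 2, *Sox2* and *Zfp42*, lower, and 10 of 15 were higher than in the VE columns. In iTSC 12 of 16 were higher than in ESCs with 1, *Zfp42*, lower, and 12 of 16 higher than in iXEN. Of the 16 genes 7 were lower in the ExE columns than in iTSC, against 14.5% of all genes. The 2 genes *Gata2* and *Satb1* were higher, against 10.2%. *Bmp4* was at 0.943 against 1.98 and *Hand1* at 0.838 against 1.90. All 5 pluripotency genes were lower in the ExE than in the Epi columns and also lower than in iTSC.

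The genes most like each factor were ranked in 2 ways. Over 12 profiles of mean ln(TP10k + 1), the 3 blocks on 3 plates and the 3 cultures, *Pon2*, *Sct* and *Tmem114* followed *Cdx2* most closely, with Pearson correlations of 0.99, 0.99 and 0.99. The genes nearest to *Tfap2c* were *Fgfr1*, *Mboat2* and *Irf1*, to *Eomes* *Akap17b*, *Tox2* and *Rnf128*, to *Gata3* *Drd4*, *Cdx2* (0.98) and *Pon2*, and to *Ets2* *Tmem101*, *Nkiras2* and *Zfp771*. Profiles of 1 block share a pool, and by Spearman correlation the 3 nearest genes of *Cdx2*, *Eomes* and *Gata3* were all others. Over the cells of the ExE columns, averaged over plates, *Eomes* was nearest to *Elf5* (0.55), *Ddah1* (0.55) and *Bmp4* (0.53). *Elf5* was found in 48.2% of cells with and 15.8% without *Eomes*, and *Bmp4* in 48.7% and 7.59%. *Cdx2* was nearest to *Coch* (0.49), *Hoxb9* and *Mcub*, with *Coch* in 34.1% of cells with and 5.15% without it. The nearest genes of *Tfap2c* (*Eomes*, *Tex30* and *5730455P16Rik*), *Gata3* (*Dppa1*, *Cdx2* and *Tfap2c*) and *Ets2* (*Eomes*, *Elf5* and *Aoc2*) reached 0.33, 0.32 and 0.27 at most, which are weak in sparse values.

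Outside the ExE columns and iTSC, *Tfap2c* and *Eomes* were read against lists of the lineages that use them. In the Epi columns 39.5% of cells had *Tfap2c*, with median numbers of genes of 4853.5 in cells with and 4822 in cells without it. Of 9730 genes found in at least 10% of these cells, 46.2% had a higher mean in cells with *Tfap2c*, 14.1% on all 3 plates. Of 6 genes of primordial germ cells, 5 had a higher mean in cells with *Tfap2c*, and 4 of them on all 3 plates. Of the 5 found in at least 10% of cells 4 did, and 3 of them on all 3 plates. *Dppa3* (Stella) was found in 64.5% of cells with (55.4 to 72.9) and 17.9% without (12.7 to 24.1), with means of 4.13 and 0.550. *Nanos3*, an RNA-binding protein of germ cells, was found in 17.7% and 3.16%, with means of 0.394 and 0.0743. *Prdm14* was found in 22.6% and 12.1% and *Prdm1* in 21.8% and 14.7%, with overlapping intervals. Of the 5 pluripotency genes 3 had a higher mean in cells with *Tfap2c*, 1 of them on all 3 plates. Of the 7 ExE markers 3 did, and 2 of the 3 found in at least 10% of cells. *Bmp4* did so on all 3 plates, at 0.474 and 0.0378, whereas *Elf5* had means of 0.00309 and 0.0201. Genes of the primitive streak, such as T and *Mixl1*, were found in at most 1.61% of cells on either side. In ESCs all 6 germ cell genes had a higher mean in cells with *Tfap2c*, against 59% of 13057 genes, but only 18 ESCs lacked it.

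In the VE columns 75 cells (23.8%) had *Eomes*, with median numbers of genes of 5608 in cells with and 5266 in cells without it. Of 9862 genes found in at least 10% of these cells, 49.5% had a higher mean in cells with *Eomes*, 12.4% on all 3 plates. Of 8 genes of the anterior VE, 7 had a higher mean in cells with *Eomes* and 3 did so on all 3 plates. All 5 found in at least 10% of cells had a higher mean, 3 of them on all 3 plates. A higher mean was also found for 6 of the 7 VE markers, all of which passed this filter, with 2 of them on all 3 plates. It was found for 5 of 7 ExE markers (1 of the 2 passing) and 2 of 8 genes of parietal endoderm (2 of the 7 passing). The 3 anterior genes higher on all 3 plates were *Lefty1*, a *Nodal* antagonist, in 25.3% of cells with and 11.7% without, *Hhex* in 58.7% and 39.6%, and *Nodal* in 36% and 13.8%. *Cer1* and *Otx2* were found in at most 2.67% of cells on either side. In iXEN 3 of the 8 anterior genes had a higher mean in cells with *Eomes*. Of the 4 found in at least 10% of iXEN 3 did, against 47.3% of 12218 genes under the same filter. *Nodal* was found in 15.4% with and 18% without.

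**Figure D5:**
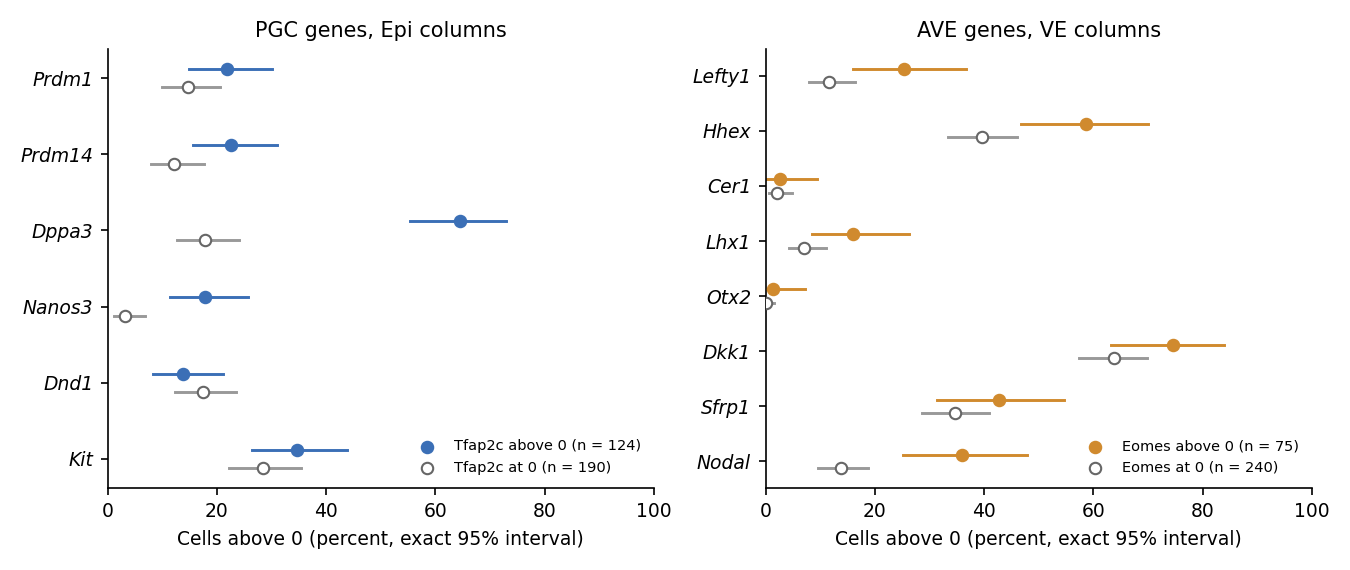
Percent of cells above 0, with exact 95% intervals, for primordial germ cell (PGC) genes in cells of the Epi columns with and without *Tfap2c* and for anterior visceral endoderm (AVE) genes in cells of the VE columns with and without *Eomes*. The intervals of *Dppa3* and *Nanos3* and of *Hhex* and *Nodal* lie apart, and those of the other genes overlap.

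The 7 cells of the Epi and VE columns with at least 3 factors were examined singly. The 3 of the Epi columns, 1 on each plate, were led by the Epi list, had *Pou5f1* between 5.20 and 18.9 and no *Elf5*. The 4 of the VE columns were less alike. A cell on plate 3 had all 5 factors, with *Cdx2* at 0.229, *Tfap2c* at 0.908, *Eomes* at 1.39, *Gata3* at 0.990 and *Ets2* at 1.46, and *Elf5* at 3.90. It had neither *Pou5f1* nor *Gata4* and was led by the ExE list. A cell on plate 4 had all but *Eomes*, with *Gata3* at 2.43 and *Pou5f1* at 4.14, and was led by the Epi list. The other 2 had *Eomes*, *Gata3* and *Ets2* and were led by the VE list. They had *Gata4* at 3.89 and 5.63 with *Pou5f1* at 7.86 and 10.8. The means over all cells of the VE columns were 2.90 for *Gata4* and 4.53 for *Pou5f1*. Whether such cells are single cells of their block, doublets or cells from another gate was not tested.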

How the data were processed

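Single cells had been index-sorted into plates, amplified with SMART-seq2 and sequenced. The authors deposited TPM per gene and cell, made with bcl2fastq 2.20, kallisto on GRCm38 with Gencode transcripts and a summary to genes, after mitochondrial, ribosomal and pseudogene entries had been removed, so the sums of a cell's values had medians of 564024 to 660983 per group. Here every column was matched to a sample by its name (0 unmatched), values were rescaled to TP10k, and wells under 2500 detected genes were dropped, leaving 314 (Epi columns), 315 (VE columns), 353 (ExE columns), 142 (ESC), 141 (iXEN) and 141 (iTSC) cells. No doublet caller was run. Ratios of means took genes found in at least 10% of cells of either group and a threshold of 2-fold with the same direction on each plate. No test was run, because each condition was 1 sample. The named genes are the 5 factors, the genes of fixed lists of families, lineages and markers, and the 3 genes most correlated with each factor. The factors and lists were chosen with earlier results of these data known. Scripts used Python 3.11.15 with numpy 2.4.6, pandas 2.3.3, scipy 1.17.1 and matplotlib 3.10.9, and were tested on simulated data. Alternatives are given at the end.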

Additional observations from a re-analysis of the deposited data

Results flagged for a closer look

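For *Ets2* the contrast of the ExE columns or iTSC over the pluripotent groups pointed in opposite directions in 3D and 2D. In 3D the log2 ratio of the ExE over the Epi columns was 1.55, above 0 on all 3 plates, whereas in 2D that of iTSC over ESCs was -0.15. The difference was not tested, because each condition was 1 sample. The 2D value was 0.33 in cells with 5000 to 8000 genes, which left 6 ESCs, and 1.12 with no minimum of genes.

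Wells left out for too few genes still held factors. In the ExE columns 6 of 31 such wells (19.4%, 7.45 to 37.5) had at least 1 factor above 0, against 2 of 67 (2.99%) in the Epi columns. The wells had medians of 37 and 10 genes above 0, and the part of this difference in the result was not tested.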

How the results depend on the processing

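Among the recomputed log2 ratios of the factors, 4 had the opposite sign and 13 crossed 2-fold. The opposite signs were those of *Ets2* in iTSC over ESCs (1.12 with no minimum of genes, 0.33 in cells with 5000 to 8000 genes) and of *Eomes* in the ExE columns over iTSC (0.41 with no minimum, 0.77 in 3D cells led by their own list). With no minimum of genes the median log2 ratio of all genes in the ExE columns over iTSC was 0.69, so the *Eomes* value there lay below that shift. Under this setting at least 3 factors were found in 22.2% of ESCs and 49% of iTSC, 5 factors met the rule in iTSC over ESCs and 2 in the ExE columns over iTSC, 24.1% of genes were lower in iTSC than in iXEN, and 33.9% were higher and 8.43% lower in the ExE columns than in iTSC. Counting a factor from 1 TPM gave 34.5% of ESCs with at least 3. With 5000 to 8000 genes per cell the shares were 71.6% in the ExE columns, 16.7% of ESCs and 11.4% of iXEN, 2 factors met the rule in the ExE columns over iTSC, 21.5% of genes were lower in iTSC than in ESCs and 9.52% lower in the ExE columns than in iTSC. In 3D cells led by their own list the share was 86.7% in the ExE columns, and 13.3% of genes were lower than in the VE columns. Over all iTSC, not selected by list, 1 factor met the rule in these cells, with 4.62% of genes higher. With TPM as deposited 1 factor met the rule in the ExE columns over iTSC. Leaving out each plate in turn gave 50.2% to 62.7% of the ExE columns with at least 3 factors, the lowest without plate 3, and 0 to 1 factors meeting the rule over iTSC. With no filter on rare genes 26.6% were lower in the ExE columns than in iTSC. At a threshold of 4-fold 3 factors met the rule in the ExE over the Epi columns, and genes higher and lower made 5.97% and 3.70% there, 6.55% and 3.15% over the VE columns, 8.78% and 4.74% in iTSC over ESCs, 8.71% and 5.06% in iTSC over iXEN, and 2.77% and 5.11% in the ExE columns over iTSC. The stricter threshold and the wider gene set account for their shares by construction, and for the others the cause was not tested. No paired analysis was possible because each condition was 1 sample. Depth limits the shares: a factor at 0 in a cell may be below detection, and 3D cells had fewer genes than 2D cells.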
